A study of Oryctolagus cuniculus with 39 samples.

Results

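Whole interscapular fat of the rabbit was compared between the first and the last age of a series on the loss of brown adipose tissue (BAT), day 1 after birth and 12 weeks. The animals were New Zealand White rabbits, and no treatment or transgene is named for them. Each age had 3 bulk RNA-seq libraries of the whole depot, which holds fat cells, stromal cells, vessels, nerves and blood together. The series labels 39 samples, and the other whole-tissue libraries were 3 at 3 weeks and 3 at 6 weeks. Genes were kept when their FPKM (fragments scaled to transcript length and library size) was 1 or more in at least 3 of the 6 libraries, which gave 11992 of the 20183 genes in the table. Of these, 10201 reached an FPKM of 1 in all 6 libraries, 193 did so in the 3 day 1 libraries alone and 430 in the 3 libraries of 12 weeks alone, so that the last 2 sets had to differ to be kept.

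Brown fat burns fatty acids in its many mitochondria and releases the energy as heat through uncoupling protein 1 (UCP1), which lets protons return across the inner membrane without making ATP. Noradrenaline starts this through beta-adrenergic receptors, cyclic AMP and lipolysis. White fat stores triglyceride in a large droplet, makes part of its fatty acids from glucose and acetate, and secretes hormones such as leptin. In the rabbit, as in other large mammals, the brown fat between the shoulder blades of the newborn turns into fat of white appearance during growth.

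Between the ages, 5907 genes differed at an adjusted p under 0.05 (limma on log2(FPKM + 1), with Benjamini-Hochberg adjustment over the 11992 genes), which is 49.3% of those tested. At 12 weeks 3909 genes (32.6%) were higher and 1998 (16.7%) were lower, and 0.18 was the median change on the log2 scale over all genes. For 6952 genes (58.0%) the 3 values of one age did not overlap those of the other, with the later age higher in 38.2% and lower in 19.7%. With a median-ratio scaling, which sets that median to 0.00, 2934 genes (24.5%) were higher and 2853 (23.8%) lower, so the higher genes made up 66.2% of the calls as deposited and 50.7% after this scaling. A minimum log2 fold change of 1 left 1645 higher and 854 lower genes, and 104 rose and 75 fell by 3 or more on this scale. The counts below for a gene group are to be read against 32.6% higher and 16.7% lower.

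Replicates of an age correlated with r from 0.973 to 0.976 at day 1 and from 0.967 to 0.977 at 12 weeks, over the log2(FPKM + 1) of the genes tested. The relative sequencing depth, estimated from the steps of low FPKM values, was 0.559 to 0.62 at day 1 and 1.357 to 1.386 at 12 weeks, so depth and age cannot be told apart. Genes above 0 numbered 15701 to 16023 and 17264 to 17534. In a bulk library, fewer cells of a type and less RNA per cell cannot be told apart either.

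**Figure D1:**
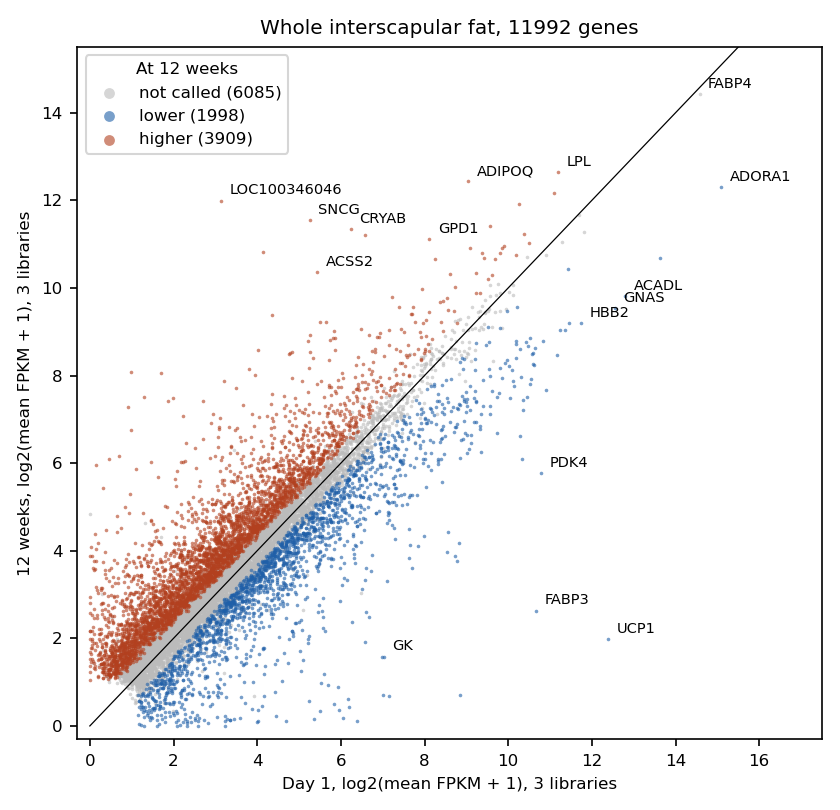
Mean level of each of the 11992 genes at day 1 (x axis) and at 12 weeks (y axis), both as log2(mean FPKM + 1) over 3 libraries, with the line of equal level. Red points are the 3909 genes higher at 12 weeks, blue the 1998 lower and grey those not called. UCP1, FABP3 and PDK4 lie far below the line, and LOC100346046, SNCG and ACSS2 far above it.

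At day 1 the most abundant transcripts were ADORA1, FABP4, LOC100009266 and ACADL, in this order, and at 12 weeks they were FABP4, LPL, ADIPOQ and ADORA1. FABP4, a fatty acid carrier that marks fat cells, had an FPKM of 28790, 23753 and 20777 at day 1 and of 18484, 28341 and 18904 at 12 weeks. Its values overlapped between the ages (log2 fold change -0.17 ± 0.33 (SE), adjusted p = 0.682). All 6 libraries thus held this fat cell marker among their most abundant transcripts. ADIPOQ (adiponectin) went from 528.9 ± 109.2 (SD, n = 3) to 5515 ± 157 and LPL (lipoprotein lipase) from 2351 ± 160 to 6372 ± 881. The elongation factor EEF1A1 was at 3324 ± 323 and 3237 ± 271 and was not called.

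The adenosine receptor gene ADORA1, whose product lowers cyclic AMP in fat cells, had an FPKM of 34459, 33823 and 36722 at day 1 and of 4832, 5724 and 4648 at 12 weeks. LOC100009266, named urate oxidase in the deposited annotation, an enzyme of purine breakdown, was at 11013, 11701 and 15330 against 1568, 1500 and 1867. Together they held 9.01% ± 0.79 (SD, n = 3) of all FPKM at day 1 and 1.41% ± 0.04 at 12 weeks. Leaving both out and rescaling the rest of each library gave 4106 higher and 1889 lower genes. How reads were assigned to ADORA1 and LOC100009266 is not given in the sources used here. Whether these very high values measure the receptor and urate oxidase transcripts themselves was not tested, so they are no measure of receptor activity.

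The largest fall of all genes was that of UCP1, which went from 5102, 5163 and 5780 to 4.16, 4.21 and 0.44. The 12-week tissue, labelled brown, thus held the defining brown marker at a very small part of its day 1 level. UCP2, its relative in many tissues, was at 8.99 ± 0.88 and 12.8 ± 4.38 and was not called (adjusted p = 0.258). FABP3, the fatty acid carrier of oxidative tissues, was at 1622 ± 297 (SD, n = 3) and 5.19 ± 1.15. KCNK3, a potassium channel of brown fat cells, had an FPKM of 49.4, 66.1 and 96.9 at day 1 and of 0.26, 0.17 and 1.13 at 12 weeks.

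No value of KCNK3 at 12 weeks came near those of day 1 (log2 fold change -5.56 ± 0.44, adjusted p = 1.92e-06). DIO2, which makes active thyroid hormone inside the cell, fell by 5.16 on the log2 scale. Log2 fold changes were -8.03 for GMPR, a purine nucleotide enzyme, -6.30 for BHMT2, of methionine metabolism, and -6.26 for PPP1R1B, a protein phosphatase inhibitor that cyclic AMP signalling switches on. ALOX15 (a lipoxygenase), GLDN (gliomedin), PHKG1 (a phosphorylase kinase subunit), QPCT (glutaminyl cyclase) and KIF20B (a kinesin of cell division) completed these large falls with log2 fold changes of -5.67, -5.55, -5.35, -4.64 and -4.76.

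In the brown fat identity and thermogenesis list, 15 of 18 tested genes fell, 2 rose and 1, the thyroid hormone receptor gene THRB (15.8 and 17.7), was not called. The list had a median of -1.51, against 0.18 for all genes. PPARGC1A, the coactivator that drives mitochondrial biogenesis, was at 51, 36.7 and 54 at day 1 and at 1.2, 1.38 and 1.27 at 12 weeks. NRG4, a secreted factor of brown fat, fell from 19.6 ± 4.64 to 4.9 ± 1.48 and LETMD1, a mitochondrial protein of brown fat, from 99.3 ± 14.1 to 31 ± 3.99.

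The 2 genes that rose against the list were CIDEA, a droplet protein, and LHX8, a transcription factor. CIDEA was at 953, 950 and 555 at day 1 and then at 1507, 1528 and 1799 (a log2 difference of 1.01 ± 0.29, adjusted p = 0.0133). Without day 1 replicate 3 the change of CIDEA was 0.75 (adjusted p = 0.0641). LHX8 stayed low, at 1.16 ± 0.88 and 4.11 ± 1.53 (adjusted p = 0.016), and its call was lost without 12 weeks replicate 3 (0.0665) or day 1 replicate 1 (0.0692).

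The receptors and enzymes of the cyclic AMP route moved unevenly: 14 of 32 fell, 7 rose and the median was -0.39. Of the beta-adrenergic receptors, ADRB3 had 12.9, 14.7 and 21 at day 1 and 0.46, 0.42 and 0.26 at 12 weeks. ADRB1 went from 10.2 ± 2.06 to 2.97 ± 0.92.

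Below the receptors, GNAS, which encodes the stimulatory G protein alpha subunit, was at 5643, 5682 and 6734 and then at 781, 691 and 747. The 2 ages lay far apart (log2 fold change -3.02 ± 0.17, adjusted p = 1.78e-07). PDE4D and PDE3B, which break down cyclic AMP, fell (-4.65 and -2.33), as did AKAP1, which anchors protein kinase A at mitochondria (-3.10). The adenylyl cyclase gene ADCY5 rose from 0.80 ± 0.40 to 11.3 ± 6.82.

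**Figure D2:**
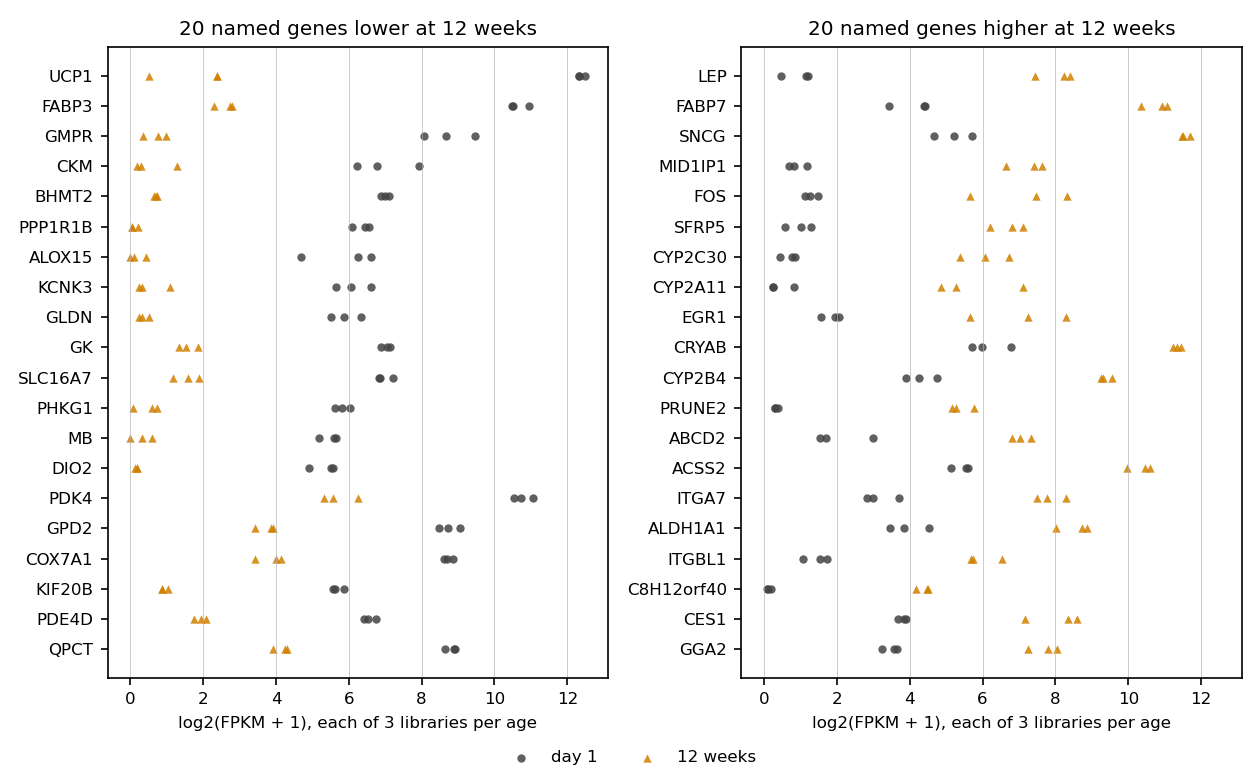
Level of the 20 named genes lower (left) and the 20 higher (right) at 12 weeks, as log2(FPKM + 1) on the x axis, with a circle for each of 3 day 1 libraries and a triangle for each of 3 libraries of 12 weeks. The circles and triangles of a gene do not overlap, which the naming rule required.

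Genes of the respiratory chain fell almost throughout. Of 84 tested nuclear genes of complexes I to IV and the ATP synthase, 74 fell and 2 rose, with a median of -1.57. Their summed FPKM was 52017, 52771 and 53252 at day 1 and 15240.5, 15901 and 14497 at 12 weeks. This was 9.95% ± 0.21 (SD, n = 3) of all FPKM at day 1 and 3.19% ± 0.09 at 12 weeks (exact permutation test of the summed FPKM, two-sided p = 0.1, the smallest that 3 against 3 libraries allow).

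Complex I takes electrons from NADH. All 34 tested genes of the complex I list fell, from -2.37 for NDUFS1 to -0.64 for the weaker of the 2 identifiers named NDUFB1. The call of that identifier (adjusted p = 0.0338) was lost without replicate 1 of day 1 (0.137) or of 12 weeks (0.14), without 12 weeks replicate 3 (0.0505), with TPM scaling (0.0671), with no filter on low values (0.0642), with only the 2 ages in the fit (0.0603) and with the replicate block (0.0558). NDUFA4, the most abundant of the list, is in it by name, though its product is counted as a subunit of complex IV. It had an FPKM of 1368, 1355 and 1413 at day 1 and of 407.9, 506.8 and 392.9 at 12 weeks. In complex II the 4 catalytic and anchor subunits fell, with SDHA at -2.37 and SDHB at -2.21, and the 4 assembly factors were not called. All 8 genes of complex III and cytochrome c fell, with a median of -2.24, and CYCS (cytochrome c) went from 1500 ± 158 to 242 ± 117.

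In complex IV, which passes electrons to oxygen, 15 of 18 genes fell and none rose. COX6A1 was at 2523, 2513 and 2806 and then at 532, 528 and 515, a change of -2.31 ± 0.20 (adjusted p = 3.17e-06). The 7A subunit family had unequal log2 fold changes, -4.88 for COX7A1, the form of muscle and brown fat, -1.97 for COX7A2 and -1.02 for COX7A2L. COX8A fell by 0.79 on the log2 scale, while LOC100354254, named cytochrome c oxidase subunit 8B-like in the deposited annotation, fell by 4.59, from 371 ± 40.2 to 14.6 ± 3.26. COX4I1 went from 1468 to 464, and its low isoform COX4I2 was at 2.61 and 3.19 and not called.

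In the ATP synthase 13 of 16 genes fell, among them ATP5B, the catalytic beta subunit, from 2571, 2624 and 3161 to 601, 550 and 605. The 2 genes of the chain that rose were ATP5G3, 1 of the genes for the membrane c subunit, and ATP5J, for a stalk subunit. ATP5G3 was at 95.8, 88.3 and 99 at day 1 and then at 219, 257 and 218 (a log2 difference of 1.28 ± 0.14, adjusted p = 2.06e-05). ATP5J went from 117 ± 8.31 to 235.5 ± 30.4 (adjusted p = 0.000124).

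Fatty acid oxidation had the lowest median of the mitochondrial lists, -2.67: 23 of 25 genes fell, ECI2 rose and OXCT1 was not called. CPT1B, which loads long-chain fatty acids for entry into mitochondria, was at 196, 201 and 226 and then at 12.8, 9.03 and 12. ACADM, the medium-chain acyl-CoA dehydrogenase, was at 1210, 1478 and 1156 and then at 82, 66.7 and 53.2. No library of 12 weeks came near those of day 1 for ACADM (log2 fold change -4.24 ± 0.23, adjusted p = 1.7e-07).

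The long-chain enzyme ACADL, among the most abundant transcripts at day 1, went from 7099 ± 826 to 902 ± 77.4, and HADHB of the trifunctional protein from 1242 ± 135 to 97.4 ± 3.88. ECI2, an enoyl-CoA isomerase, rose from 7.01 ± 1.24 to 15.4 ± 1.38. OXCT1, which uses ketone bodies, was at 98.6 ± 12.9 and 74.1 ± 14.4 (adjusted p = 0.0719), and was called lower with median-ratio scaling (-0.63, adjusted p = 0.0122), with upper-quartile scaling (-0.64, 0.011) and when day 1 replicate 3 was left out (-0.53, 0.0486).

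In the citric acid cycle and pyruvate entry 22 of 28 genes fell and 2 rose, with a median of -1.75. PDK4, the kinase that shuts pyruvate dehydrogenase, was at 1689, 1492 and 2126 and then at 39.3, 75.6 and 46.1. Its family did not move as one: PDK1 and PDK2 fell (-2.57 and -1.69), while the scarce PDK3 was at 4.66 and 5.07 and not called. CS (citrate synthase) went from 2303 ± 274 to 354 ± 59.6 and SUCLA2 (succinyl-CoA ligase) from 1297 ± 164 to 147 ± 38.4. The genes that rose were IDH1 and PDP1, a pyruvate dehydrogenase phosphatase (mean FPKM 4.07 and 6.34), the second with a call lost under median-ratio scaling (adjusted p = 0.0587).

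The mitochondrial carriers were mixed, with 15 of 40 lower, 5 higher and a median of -0.05, and 17 lower and 1 higher with median-ratio scaling. MPC1 and MPC2, which form the pyruvate carrier, fell (-2.73 and -1.81). The 1 carrier higher under both scalings was SLC25A1, which exports citrate, the carbon of fatty acid synthesis, to the cytosol. SLC25A1 was at 46.2, 56 and 68.1 and then at 380, 325 and 438, with no overlap (log2 fold change 2.73 ± 0.32, adjusted p = 3.22e-05). The adenine nucleotide carrier SLC25A4 fell by 0.81 on the log2 scale. Its relative SLC25A5 (454 ± 166 and 259 ± 126) was not called with the values as deposited and all libraries. SLC25A5 was called lower without 12 weeks replicate 1 (-1.22, adjusted p = 0.0312), with median-ratio scaling (-1.07, 0.0488) and with upper-quartile scaling (-1.08, 0.0498).

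Among genes of mitochondrial biogenesis and dynamics 16 of 28 fell and 1, the fission gene DNM1L (mean FPKM 22.5 and 33.9), rose. The call of DNM1L was lost with upper-quartile scaling (0.36, adjusted p = 0.0567). Log2 fold changes were -2.49 for MFN1, which fuses outer membranes, -1.84 for the chaperone HSPA9 and -1.12 for TFAM, which packs mitochondrial DNA. Branched-chain amino acid breakdown fell in 16 of 22 genes (median -0.88), with BCKDHA at 142 ± 14.3 and 32.8 ± 1.91. Its first enzyme, BCAT2, rose from 0.80, 1.22 and 0.60 to 12.1, 16 and 14.5.

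Of the peroxisomal genes 9 of 25 were higher and 4 lower, with a median of 0.28, shares close to those of all genes. With median-ratio scaling 7 were higher and 8 lower, with a median of 0.07. ABCD2, a carrier of very long-chain acyl-CoA into peroxisomes, was at 6.94, 1.88 and 2.23 and then at 128.5, 159.7 and 110.9. ACOX2 (an acyl-CoA oxidase) rose by 2.38 and PEX16 (peroxisome assembly) by 1.75, and ACAA1, a peroxisomal thiolase, fell by 1.12.

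**Figure D3:**
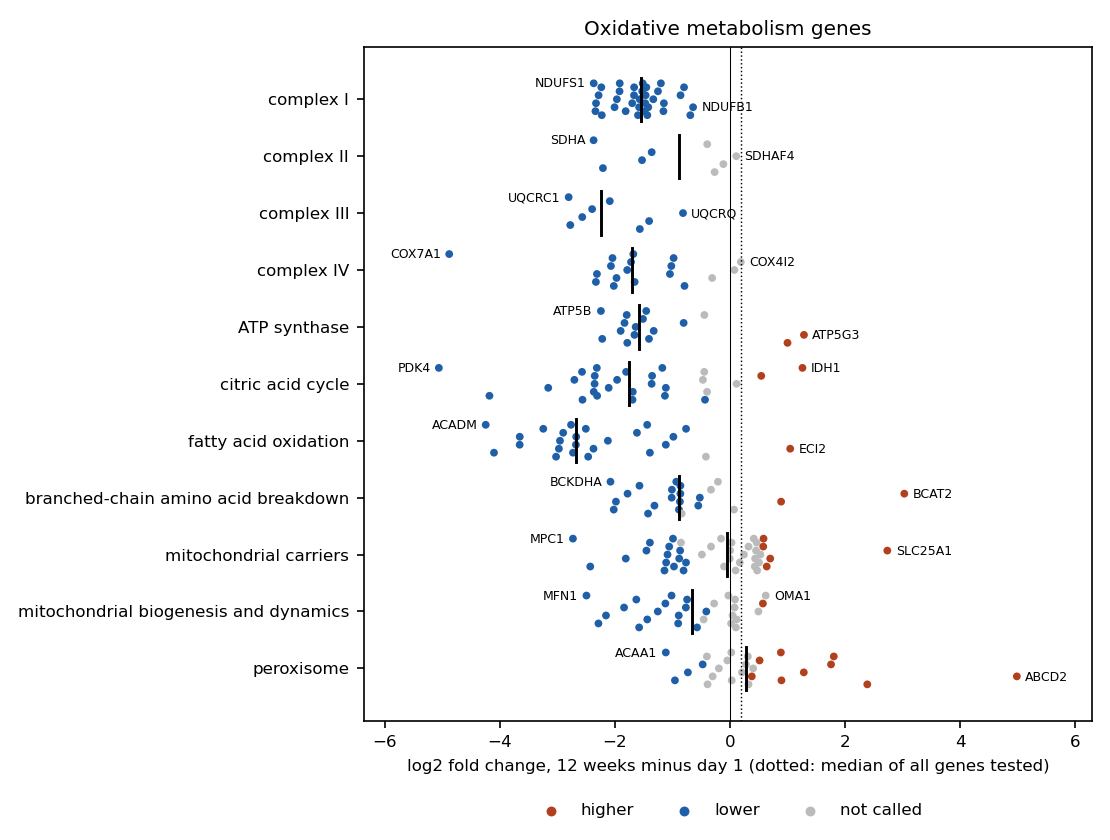
Log2 fold change of each tested gene (x axis, 12 weeks minus day 1) in 11 groups of oxidative metabolism, with the lowest and the highest gene named. Black bars are group medians, the dotted line is the median of all genes (0.18), and red, blue and grey points are higher, lower and not called. Complex I lies wholly below 0, and the peroxisome bar is close to the dotted line.

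Fat synthesis moved the other way. In de novo lipogenesis 18 of 24 genes rose and 1 fell, with a median of 1.37. ACSS2, which turns acetate into acetyl-CoA in the cytosol, was at 47.5, 45.6 and 34.1 and then at 1549, 998 and 1396 (log2 fold change 4.91 ± 0.30, adjusted p = 3.2e-07). ACACA, which makes the malonyl-CoA for fatty acid chains, was at 6.15, 7.2 and 9.07 and then at 148.6, 74.7 and 105.3.

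The isoform ACACB, tied to the mitochondrial surface, rose less, from 83.2 ± 17.9 to 206.6 ± 41.5. ME1, which makes NADPH for the chains, rose from 4.72 ± 1.08 to 80.4 ± 31.7. Of the Spot14 pair, which regulate lipogenesis, MID1IP1 rose by 6.33 and THRSP, already at 667 ± 77.6 at day 1, by 1.41. ACLY, which splits citrate, was at 278 ± 46.3 and 420 ± 165, overlapped and was not called, and neither was the elongase gene ELOVL6 (110.8 and 141.7).

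The largest rise of all genes was that of LOC100346046, named acyl-CoA desaturase-like in the deposited annotation, the enzyme class that puts the first double bond into fatty acids. Its FPKM was 5.96, 4.78 and 12.7 at day 1 and 4898, 3690 and 3626 at 12 weeks (log2 fold change 8.94 ± 0.58, adjusted p = 5.13e-07). The annotation gives 6 genes of this class, and their sum was 13.5, 15.3 and 24.2 and then 5256, 4204 and 4008.

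LOC103347610, LOC100357419, LOC100346561 and LOC100346306 rose as well, to means of 61.1, 179.3, 169.7 and 6.66, and SCD5 was not called (1.31 and 1.17). How reads shared between copies of this class were assigned is not given in the sources used here, so the split between copies is uncertain. FADS3 rose by 3.26 and ELOVL1 and ELOVL5 by 1.17 and 1.34, while the elongase genes ELOVL2 and ELOVL7 fell (-1.92 and -0.77). The call of ELOVL7 was lost without replicate 1 or 2 of either age (adjusted p from 0.0715 to 0.106).

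Cholesterol synthesis rose in 20 of 23 genes and fell in 1, with a median of 1.84. MSMO1, a demethylating oxidase of the pathway, was at 33, 33.4 and 15.3 and then at 451, 274 and 389. EBP, LSS and TM7SF2, other enzymes of the pathway, rose by 3.67, 3.17 and 3.39. Between the ages compared, MSMO1 had means of 43.3 ± 9.53 at 3 weeks and 153.2 ± 98.7 at 6 weeks.

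The regulators of the pathway went apart. INSIG1, a sterol-dependent brake on SREBP processing, was at 36.1, 33.1 and 39.7 and then at 616, 331 and 367, while INSIG2, its relative, fell from 62.5 ± 1.14 to 22.4 ± 4.10. SREBF1, the transcription factor of lipogenesis, rose from 18.3 ± 4.50 to 68.6 ± 14.2.

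For triglyceride synthesis 8 of 15 genes rose, 4 fell and the median was 0.51, and members of the same step moved in opposite directions. GK, which makes glycerol 3-phosphate from glycerol, was at 117.5, 138.2 and 132.5 and then at 1.51, 1.89 and 2.6 (log2 fold change -5.46 ± 0.17, adjusted p = 7.26e-09). GPD1, which makes it from the glycolytic intermediate, was at 246, 322 and 261 and then at 2501, 2043 and 2081 (log2 fold change 3.00 ± 0.22, adjusted p = 1.33e-06). Among the acyltransferases GPAT4 fell by 3.74, and GPAT3 and GPAM rose by 2.69 and 2.66. DGAT2, the last step, rose from 894.6 ± 121.6 to 1788 ± 116.

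Lipid uptake and binding rose in 10 of 25 genes and fell in 4. The fatty acid-binding proteins moved apart, with FABP4 not called: FABP7, known from brain and some fat, was at 20.5, 9.84 and 20 and then at 2129, 1307 and 1942, FABP5 rose by 1.25, and FABP9 (0.45 and 4.61) was not called (adjusted p = 0.0668). FABP9 was called higher with only the 2 ages in the fit (0.0142), with a pseudocount of 0.1 (0.0312) and with the replicate block (0.0371). ACSL1, which activates fatty acids, rose from 420 ± 141 to 1042 ± 142 and ACSL4 fell from 164.5 ± 14.1 to 37.3 ± 6.22. ANGPTL4, an inhibitor of lipoprotein lipase, fell from 94.4 ± 19.5 to 9.10 ± 2.80, while APOE rose by 2.99.

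CD36, a fatty acid receptor, was not called, at 3571 ± 327 and 2490 ± 464 (adjusted p = 0.0952, and 0.0283 with median-ratio scaling). ACSL3, ACSL5 and ACSL6 were not called either. ACSL5 (mean FPKM 3.34 and 5.48) was called without 12 weeks replicate 1 (0.77, adjusted p = 0.023) and ACSL6 (0.56 and 2.84) without 3 weeks replicate 3 (1.20, adjusted p = 0.0143). In the lipolysis and droplet list 7 of 12 rose and 3 fell. PLIN2, which coats small droplets, fell from 339 ± 136 to 46.3 ± 2.62. CIDEC, of large droplets, LIPE (hormone-sensitive lipase) and G0S2, a lipase inhibitor, rose by 1.28, 1.17 and 1.39.

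A set of 7 enzyme pairs with a mitochondrial and a mainly extramitochondrial form was put together after the values were seen. In 5 pairs the mitochondrial gene fell and the other rose. They were IDH2 and IDH1 (-4.18 and 1.26), ACSS1 and ACSS2 (-2.63 and 4.91), GPD2 and GPD1 (-5.01 and 3.00), ACAT1 and ACAT2 (-2.50 and 2.06) and SOD2 and SOD1 (-1.55 and 0.62). MDH2 fell by 1.96 on the log2 scale, while MDH1 (-0.45) was not called. The phosphoenolpyruvate carboxykinases went against the rest: the mitochondrial PCK2 rose by 3.75 and the cytosolic PCK1 fell by 2.54.

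Glycolysis had no common direction, with 12 of 28 genes lower, 9 higher and a median of 0.04 (-0.17 with median-ratio scaling). SLC16A7, a monocarboxylate carrier, was at 112.4, 115.9 and 147.2 and then at 2.71, 1.99 and 1.26, while the carrier SLC16A1 rose by 1.62. PKM (pyruvate kinase) fell from a mean of 155.4 to 18.4 and GAPDH from 2761 to 1373, and PFKFB3, which sets the pace of glycolysis, rose by 1.26. HK1 fell by 1.38 on the log2 scale. HK2 rose by 0.60, a call lost without day 1 replicate 1 (adjusted p = 0.166) or 12 weeks replicate 1 or 3 (0.145 and 0.0704), and with median-ratio scaling (0.172). ENO1 and ENO2 fell (-0.62 and -1.09), and ENO3, LDHA and LDHB were not called.

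**Figure D4:**
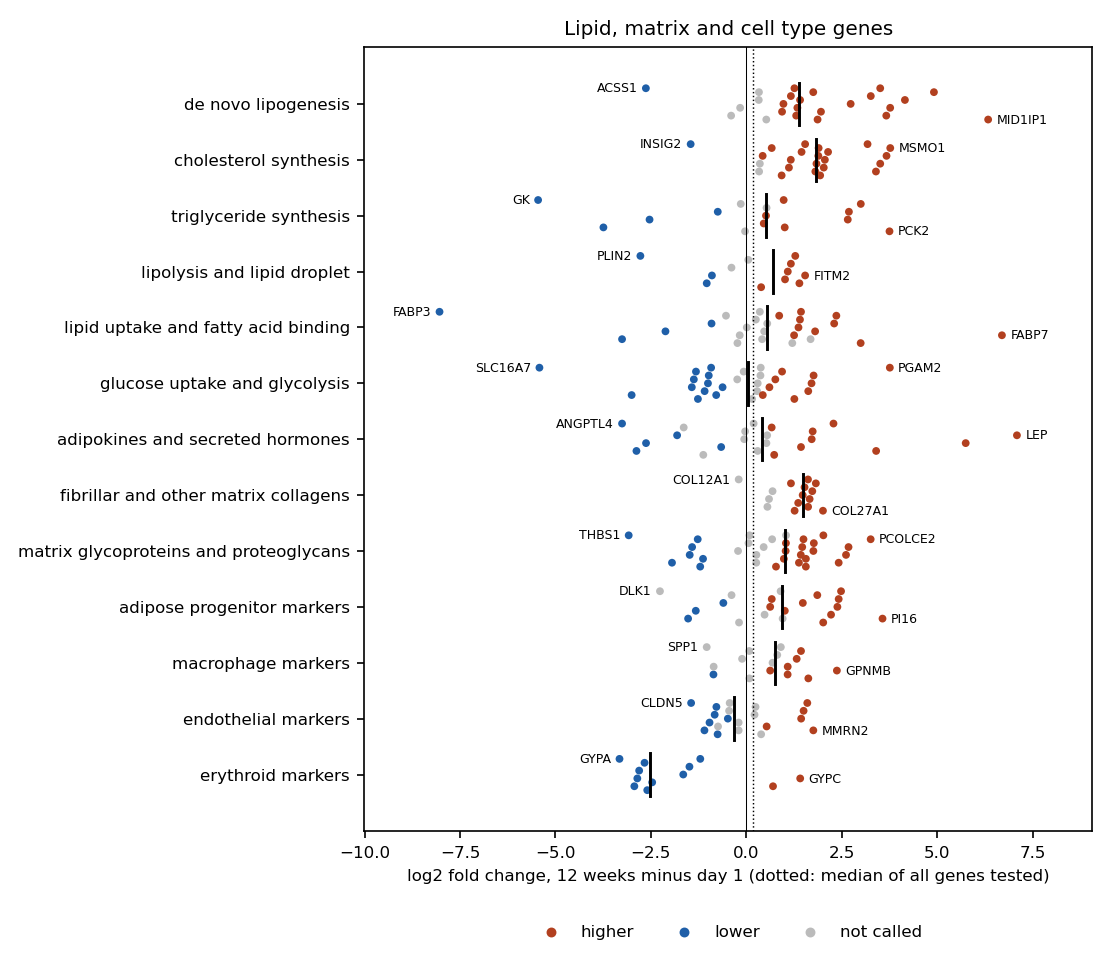
Log2 fold change of each tested gene (x axis, 12 weeks minus day 1) in 13 groups of lipid, hormone, matrix and cell type genes, with the lowest and the highest gene named. Black bars are group medians and the dotted line is the median of all genes (0.18). De novo lipogenesis, cholesterol synthesis and collagens lie mostly above 0 and erythroid markers mostly below.

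Of the hormones and adipokines 9 of 22 rose and 5 fell. LEP (leptin) was at 1.29, 1.23 and 0.37 and then at 171.6, 336 and 301. SFRP5, a secreted Wnt inhibitor, was at 1.44, 1 and 0.50 and then at 72.7, 110.9 and 136. NAMPT, an enzyme of NAD synthesis that is also secreted, fell by 2.63, and RBP4, a retinol carrier, rose by 2.28.

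Insulin signalling genes changed in both directions, 8 of 25 higher and 6 lower, with a median of 0.06. With median-ratio scaling 8 were higher and 11 lower, with a median of -0.10. AKT2, the main insulin-stimulated kinase of fat, was at 48.9, 69.4 and 55.7 and then at 195, 169.3 and 211.9. IRS1 rose by 1.15, and LOC100339305, named insulin receptor substrate 3 in the deposited annotation and outside the naming rule, by 6.33, from 2.25 ± 0.54 to 264.5 ± 75.1. GRB14, which blocks the insulin receptor, fell by 2.85.

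In the growth hormone and IGF axis 6 of 16 rose and 5 fell: IGF1 and its binding protein IGFBP5 rose by 1.34 and 3.18 and the receptor gene GHR by 1.38, while PRLR (prolactin receptor) and CISH (a cytokine signal inhibitor) fell (-1.80 and -2.40). Of fetal and imprinted growth genes, 6 of 14 fell and 2 rose. GPC3, a glypican of fetal growth, went from 24 ± 5.26 to 2.19 ± 0.68.

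Of the transcription factors of fat cells 15 of 36 were higher and 6 lower (41.7% and 16.7%), with a median of 0.32. With median-ratio scaling 11 were higher and 8 lower, with a median of 0.14. CEBPA was at 29.6, 41.3 and 36.6 and then at 207.7, 201.5 and 179.9, and NRIP1, a corepressor of oxidative genes, rose by 1.85. RXRG, a retinoid receptor, fell from 35.7 ± 6.19 to 6.68 ± 3.56. Of the clock genes 7 of 19 rose and 6 fell. NR1D1, a part of the feedback loops of the clock, rose by 3.41 and TEF, an output of the clock, by 2.58. CRY1 and ARNTL, of the core loop, had log2 fold changes of -3.18 and -1.75. The hour of sampling is not given in the sources used here. Positional transcription factors, which record the place of a tissue in the body, rose in 17 of 33 cases and fell in 3, with TBX15 at 7.73 ± 0.80 and 30.6 ± 1.52, HOXC5 at 0.75 ± 0.29 and 5.84 ± 0.49 and TBX18 at 9.04 ± 1.19 and 4 ± 0.60.

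Of 15 collagens of the fibrillar and other matrix list, 11 rose and none fell, with a median of 1.48. COL3A1 was at 542, 958 and 775 and then at 2250, 2012 and 3921. COL1A1 was at 434.6, 680.7 and 503.4 and then at 1217, 997 and 3554, with 12 weeks replicate 3 well above the other two. Without it the sum of this list ranged from 4648 to 5240 at 12 weeks, against 1585 to 2519 at day 1.

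Proteoglycans and glycoproteins rose in 17 of 32 cases and fell in 7. DCN (decorin) was at 215.6, 359.2 and 342.1 and then at 1294, 1565 and 2012, and PCOLCE2, which helps cut procollagen, rose by 3.26. THBS1 (thrombospondin 1) fell by 3.08. ELN (elastin) fell from 44.5 ± 18.5 to 14.9 ± 5.80, a call lost without day 1 replicate 2 (adjusted p = 0.0568) or 12 weeks replicate 1 (0.0504). Among remodelling enzymes 16 of 35 rose and 5 fell, with LOXL2, a collagen crosslinker, at 34.6, 27.2 and 36.6 and then at 203.9, 240.9 and 257.4, and MMP2, a gelatinase, up by 2.37.

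At the ages in between, some of the genes described did not lie between the end points. COL3A1 had its highest mean at 6 weeks (5391), as did DCN (2154) and IGFBP5 (483), so their range over the 4 ages is wider than the difference between day 1 and 12 weeks. UCP1 was at 827.7 ± 140 at 3 weeks and 8.72 ± 11.8 at 6 weeks, and GPD2 at 271.8 and 18.3. GPD1 and ACSS2 had means of 424 and 124 at 3 weeks and of 1231 and 717 at 6 weeks, below those of 12 weeks. ANGPTL4 was at 70.0 ± 77.1 at 6 weeks, with libraries far apart.

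**Figure D5:**
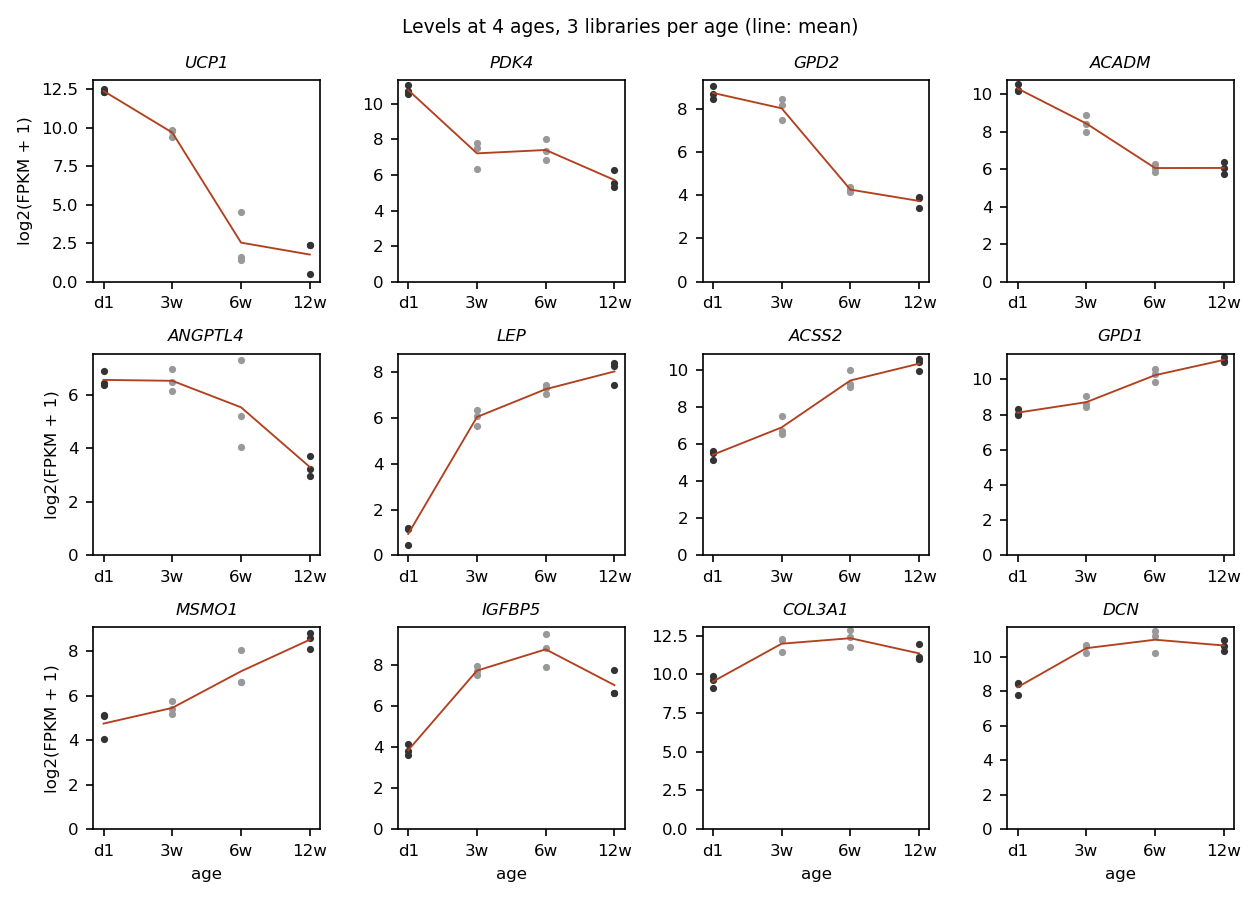
Level of 12 genes at day 1 (d1) and at 3, 6 and 12 weeks (w), as log2(FPKM + 1) on the y axis of each panel, with a point for each of 3 libraries per age and a line through the means. Black points are the ages compared and grey points the ages in between. UCP1, PDK4, GPD2 and ACADM end low, MSMO1 is highest at 12 weeks, and COL3A1, DCN and IGFBP5 are highest at 6 weeks.

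Markers of the other cell types of the depot were read with the same test. Of the adipose progenitor list 11 of 20 rose and 3 fell, and its summed FPKM was 781.5 to 907.9 at day 1 and 1976 to 3037 at 12 weeks. DCN, counted above among the proteoglycans, is also in this list and made up most of its sum at 12 weeks. PI16 was at 11.4, 14.6 and 8.77 and then at 110.4, 106.7 and 261.6, while DPP4 fell from 23.6 ± 5.30 to 7.76 ± 3.15. Of the macrophage list 7 of 16 rose, LPL among them, and 1 fell. The gene that fell was MERTK, a receptor for dying cells, at 12.7, 4.74 and 8.35 and then at 2.90, 4.86 and 4.35, with an overlap and a call (adjusted p = 0.0317) lost without day 1 replicate 1 or 3 or 12 weeks replicate 1 or 3 (0.0553 to 0.133). Without LPL, which fat cells make in bulk, the summed FPKM of this list was 133 to 215 and 186 to 318. These sums overlapped between the ages (exact permutation test, two-sided p = 0.2). CSF1R, their growth factor receptor, was at 4.35 ± 0.82 and 13.1 ± 6.29 and lost its call without day 1 replicate 1 or 3 (adjusted p = 0.0648 and 0.065) or 12 weeks replicate 3 (0.102). With median-ratio scaling 8 of the progenitor genes were higher and 4 lower, and 5 of the macrophage genes were higher and 3 lower. The progenitor list, and less clearly the macrophage list, moved in the same direction as the collagens, and their part in that result was not tested.

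Of the endothelial list 7 of 20 fell and 5 rose (sums of 626.5 to 798.5 and 452.4 to 612.2), with CLDN5 (a tight junction protein) at -1.45, KDR (the VEGF receptor) at -1.10 and VWF (von Willebrand factor) at 1.60. Smooth muscle and pericyte markers split 4 up and 4 down of 15, with ACTA2 (smooth muscle actin) at -1.79 and RGS5, of pericytes, at 1.23. Red cell markers fell in 10 of 12 cases with a median of -2.53, and their sum was 2233.5 to 5132 at day 1 and 383 to 1168 at 12 weeks. HBB2, a beta globin, was at 3853, 1919 and 4545 and then at 294, 431 and 1027. This moved in the same direction as the mitochondrial genes, and its part in that result was not tested.

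The skeletal muscle list held 30 genes, of which 10 passed the filter, 2 fell and none rose. The summed FPKM of the list was 264.0 to 439.8 at day 1 and 154.7 to 169.3 at 12 weeks, and without PYGM and TPM3, a choice made after the values were seen, 146.4 to 305.4 and 20.4 to 33.0. This moved in the same direction as the oxidative genes, and its part in that result was not tested. MYF5, MYOD1 and MYOG, which define muscle precursors, were at 0 in all 6 libraries. CKM (muscle creatine kinase) was at 73.4, 108.1 and 242.7 and then at 1.43, 0.23 and 0.14 and MB (myoglobin) at 48.9, 47.6 and 35.5 and then at 0.52, 0 and 0.26. CKM and MB were the 2 genes that fell, and they made up most of the day 1 sum without PYGM and TPM3. The other 8 tested genes of the list were not called. The spread of muscle genes in the fit also takes in 3 weeks replicate 3, which is rich in muscle transcripts. ACTN2 was at 14.3 ± 3.32 and 0.61 ± 0.28 with an adjusted p of 0.0518, and of 5.02e-05 without that library. ACTA1, the skeletal muscle actin, was at 3.4 and 3.13 and not called.

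Cell cycle genes were mostly not called, with 7 of 36 higher and 1, the spindle gene TPX2, lower, with a call (adjusted p = 0.0331) lost without any 1 of the 12-week libraries or day 1 replicate 1 or 2 (0.0514 to 0.115). CCND2 and CCND3, D-type cyclins, rose by 2.40 and 2.17. MKI67, a marker of dividing cells, was at 5.53, 3.53 and 3.34 and then at 1.93, 1.54 and 2.17 (adjusted p = 0.181, and 0.0106 with day 1 and 12 weeks alone in the fit). Of the stress and chaperone list 14 of 24 rose and 2 fell, with CRYAB, a small heat shock protein, at 108.8, 62.3 and 51.5 and then at 2379, 2795 and 2570 and HSPA8 up by 2.35.

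Of the nuclear hormone receptors and the enzymes that feed them 15 of 27 rose and 6 fell, with FKBP5, a glucocorticoid receptor partner, at 23.5 ± 10.4 and 5.62 ± 1.88. Antioxidant genes rose in 13 of 28 cases and fell in 7, with the extracellular SOD3 at 65.0 and 244.4 and MSRB1, which repairs oxidised methionine, at 34.6 and 150.1. For haem and iron handling 9 of 26 rose and 8 fell, and 6 were higher and 10 lower with median-ratio scaling: TFRC, which takes up iron-loaded transferrin, was at 64.2 and 8.30, and STEAP4, a metal reductase, at 0.56 and 12.2. Calcium cycling genes fell in 7 of 20 cases and rose in 4, with MICU3, a regulator of the mitochondrial uniporter, at 48.9 and 15.4 and PLN, which restrains the calcium pump, at 0.48 and 5.52.

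Basement membrane genes rose in 9 of 17 cases and fell in 1, with SPARC, a collagen-binding protein, at 1227 ± 82 (SD, n = 3) and 3887 ± 1018. Nerve and Schwann cell markers split 3 up and 3 down of 11, with a median of 0.01. DBH and NPY, made by sympathetic nerves, were at 0 in all 6 libraries. S100B, which fat cells make as well as Schwann cells, was at 12.1 and 91.1. Of 23 listed lymphocyte genes, 3 passed the filter, and JCHAIN, of antibody-making cells, rose (2.35 and 8.23). In the interferon response list, taken by symbol, 3 of 18 were higher, 1 of the identifiers, OASL, was lower and 14 were not called. Placeholder genes annotated as interferon-induced were outside this list, and both rises and falls were called among them. Of 4 tested neutrophil and mast cell markers S100A8, S100A9 and S100A12 fell and KIT rose. The call was lost for S100A9 without any 1 library but 12 weeks replicate 3 (adjusted p from 0.0547 to 0.157), for S100A12 without replicate 1 of either age, 12 weeks replicate 2 or day 1 replicate 3 (0.0597 to 0.0923) and for KIT without replicate 2 or 3 of either age (0.0642 to 0.125).

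Other genes with the largest rises were SNCG (gamma-synuclein), a protein of fat cells and nerve, at 51, 36.4 and 24.2 and then at 2852, 3281 and 2892, and ALDH1A1, a retinaldehyde dehydrogenase, ITGA7 and ITGBL1 (integrin and integrin-like), PRUNE2, GGA2 (a sorting adaptor), CES1 (a carboxylesterase) and C8H12orf40 (an open reading frame), with log2 fold changes from 4.21 for GGA2 to 5.07 for PRUNE2.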

How the data were processed

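Bulk RNA-seq of whole interscapular fat was compared between 3 day 1 and 3 12-week libraries. The values are FPKM made by the authors, per the file headers, and each deposited table was normalized on its own. HISAT2 2.0.4, Bowtie2 2.2.5, DESeq2 and the build OryCun2.0 are named in the submitters' processing notes without their roles, and the counting tool is not given in the sources used here. Whether replicates are separate animals or pools is not given either, so p-values measure the spread between these libraries. FPKM carry no counts. Relative depth was estimated from the steps of low values.

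Genes at an FPKM of 1 or more in at least 3 of the 6 libraries were tested on log2(FPKM + 1), which understates the change of low genes, with limma 3.58.1 in R 4.3.3 (moderated statistics with a variance trend). All 12 whole-tissue libraries shared 1 estimate of the spread, with 1 mean per age. p-values were adjusted by Benjamini-Hochberg over all 11992 genes, and a gene was called under 0.05. The method was tested on simulated data. Symbols came from the deposited stromal table (11625 genes) and from a RefSeq table of another assembly (366), used for names only. Sums over a list were compared by exact permutation.

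The members and the 46 gene lists were chosen with earlier results of these data known. By rule, names in the text were taken from the 20 genes that rose most and the 20 that fell most among those called (a symbol that is not a placeholder, a mean FPKM of at least 10 at 1 age, no overlap between ages), up to 4 called genes with the largest change and the most abundant gene of each list, members of families, and the 10 most abundant genes of each age. Genes named outside this rule were chosen after their values were seen: placeholder genes other than LOC100346046 and LOC100009266, and ACAA1, ACAT1, ACAT2, ACLY, ACTA1, ACTN2, ADCY5, ARNTL, COL1A1, CYP1B1, CYP4V2, DPP4, ELN, FADS3, GHR, GPAM, GPAT3, IGF1, KDR, LETMD1, LIPE, LSS, MDH1, MDH2, MKI67, NAMPT, NDUFB1, NR4A2, NR4A3, NRG4, PCK1, PDE3B, PFKFB3, PPARGC1A, RBP4, SCD5, SLC16A1, SOD1, SOD2, SREBF1, TBX18 and TFAM. Alternatives changed the scaling, filter, pseudocount, variance trend, libraries in the fit, replicate block and minimum fold change, and left out each replicate. Some genes are not reported here. Single-cell samples were not analysed here.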

Additional observations from a re-analysis of the deposited data

How the results depend on the processing

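The count of called genes stayed within 1.5 times of 5907 under all alternatives but 1: an added minimum log2 fold change of 1 left 2499 genes, 1645 higher and 854 lower. Leaving out 1 library of either age gave 5066 to 5378 called genes, 3352 to 3672 higher and 1706 to 1879 lower. The replicate numbers did not pair the libraries (same-number correlations of the deviations from the age means of -0.0796, -0.0199 and 0.177), and a fit with the replicate number as a block gave 5517 calls, 3670 higher and 1847 lower. The split of calls moved with the scaling: 2883 higher and 2887 lower with upper-quartile scaling, and 4813 higher and 1557 lower when each library was rescaled to the same total (TPM). Of 240 gene identifiers named in the text, 206 kept their direction and their side of the threshold in all these settings. The sign reversed for 6 uncalled genes: EEF1A1 (0.11 with TPM scaling, -0.10 to 0.04 when single libraries were left out), THRB (-0.02 with median-ratio and -0.03 with upper-quartile scaling, -0.04 to 0.30), PDK3 (-0.07 with both of these, -0.04 to 0.25), ACTA1 (0.06 with TPM scaling, -0.25 to 0.18), PYGM (0.07 with TPM scaling, -0.29 to 0.07) and SCD5 (-0.5 to 0.09). The causes were not tested. For lymphocyte markers the filter at an FPKM of 5 left no gene and gave no median. Day 1 libraries were the shallower ones, so low genes are measured less well there, and a difference in genes near an FPKM of 1 may not be detectable.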

Other observations

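Cytochrome P450 genes of families 1 to 4, oxidases of drugs, steroids and fatty acids, formed a group that was put together after their values were seen. Of 43 such genes, 20 passed the filter, and of these 15 rose, 1 fell and 4 were not called, with a median log2 fold change of 1.87 against 0.18 for all genes. Some of those that rose, CYP2C30 and CYP2A11 among them, were under an FPKM of 1 in every day 1 library. They could pass the filter only by being higher at 12 weeks, so the count and the median are in part set by the filter. CYP2B4, a drug-metabolising form, was at 18.0, 13.9 and 26.1 at day 1 and at 751.5, 612.8 and 632.5 at 12 weeks. CYP2C30 and CYP2A11 rose from 0.62 ± 0.25 to 70.1 ± 31.8 (SD, n = 3) and from 0.38 ± 0.33 to 67.2 ± 59.8. CYP4V2, a fatty acid hydroxylase, rose from 7.70 ± 1.82 to 129.5 ± 31.1, and LOC100328613, named cytochrome P450 1A1 in the deposited annotation, from 1.13 ± 0.56 to 57.4 ± 32.6. The gene that fell was CYP1B1 (2.71 and 0.95), with a call (adjusted p = 0.0302) lost without 12 weeks replicate 1 or 2 or day 1 replicate 1 or 3 (0.05 to 0.101). The family holds close copies, and how shared reads were assigned is not given in the sources used here.

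Immediate early genes, which respond to stimulation within minutes, were also grouped after their values were seen. Of 19 such genes, 16 passed the filter, 10 rose, 2 fell and 4 were not called. FOS was between 1.17 and 1.76 at day 1 and at 176.1, 49.5 and 314.8 at 12 weeks, and EGR1 at 1.97, 2.83 and 3.14 and then at 150.6, 49.2 and 309.3, so that the 3 libraries of 12 weeks were far apart. NR4A2 and NR4A3, of the same kind, fell (-1.61 and -1.75), while NR4A1 rose by 2.34.

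LOC100328910, named glutathione S-transferase alpha in the deposited annotation, was at 154.3, 59.4 and 71.1 at day 1 and at 2309, 2627 and 2171 at 12 weeks. LOC100346169, named succinate dehydrogenase membrane anchor subunit there, went from 72.1 ± 6.58 to 0.35 ± 0.60. In the stromal fraction of the same depot, a table normalized separately and set beside these values with no test, ALDH1A1 was at 3.97 ± 2.63 at day 1 and 119.7 ± 7.58 at 12 weeks and ACSS2 at 6.09 ± 0.08 and 27.4 ± 2.57. ALOX15, among the largest falls of the whole tissue, was at 351.0, 23.9 and 261.5 and then at 0.30, 0.08 and 0.09 in that fraction, while C8H12orf40, among the largest rises, stayed at 0.02 and 0.05.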
